A study of Mus musculus with 2 samples.

Results

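The p53 and GADD45 growth arrest genes are 9 mouse genes, Trp53, Mdm2, Mdm4, Gadd45a, Gadd45b, Gadd45g, Ccng1, Ccng2 and Sesn2. They were taken by gene identifier out of 43346 mouse genes, together with the 46 transcripts annotated to them. All 9 had an entry in both libraries. They were measured in G1E-ER4 cells, an immortalized erythroid line from mouse that the labels give as male and postnatal. G1E cells lack a functional Gata1, and the ER4 subclone carries a fusion of GATA1 with the hormone-binding domain of an estrogen receptor. Adding estradiol switches this fusion on, and the cells then mature towards red cells. The series has 1 group, cells exposed to 17beta-estradiol at 10 nM for 24 h, with polyadenylated RNA sequenced from both fragment ends in 2 libraries named biological replicates 1 and 2. Both libraries carry the fusion and the treatment, and no untreated cells were analysed here.

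The protein p53 is a transcription factor that is held at low levels by degradation and is released by DNA damage and other stress. Its targets stop the cell cycle, repair DNA or start cell death, and one of them, Mdm2, encodes the ubiquitin ligase that destroys p53 again. In red cell precursors the pathway is known from mice without Mdm2 or Mdm4 in this lineage and from ribosomal protein deficiency, where p53 activity contributes to anaemia. The GADD45 proteins, the cyclin G proteins and the sestrins are small families that link stress to arrest, to MAP kinase signalling and to growth control. Several of them are p53 targets, and terminal maturation of red cell precursors itself ends in cell cycle arrest.

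Replicate 1 held 70451041 estimated counts and replicate 2 held 13841484, so replicate 1 was 5.09-fold deeper. With 3 counts as the upper limit of a count of 0, a gene without counts could still have had 0.0426 counts-per-million (CPM) in replicate 1 or 0.217 CPM in replicate 2. Intervals and limits cover counting error only. All 8 erythroid markers reached 1 TPM (transcripts-per-million, a level per length) in both libraries. Their summed level was 198300 TPM in replicate 1 against 86730 TPM in replicate 2, mostly from the globin genes Hba-a1 and Hbb-bs. Gata1 is among the 8, with 3038 TPM in replicate 1 and 2940 TPM in replicate 2. Since the cells carry a GATA1 fusion, its detection says nothing of cell type. None of 6 myeloid, 5 lymphoid and 4 stromal or endothelial markers reached 1 TPM in both libraries. Their summed levels were 0.02 to 0.61 TPM in replicate 1 and 0.35 to 0.92 TPM in replicate 2. Of 4 megakaryocyte markers, Gp9 and Itga2b reached it, with 5.34 TPM in all in replicate 1 and 7.6 TPM in replicate 2, and Pf4 and Ppbp were at 0. The libraries differed in erythroid genes, in both directions. Adult globin genes took 22.9% of TPM in replicate 1 and 8.31% in replicate 2. Both this share and the summed marker level are over all transcripts. On transcripts annotated as protein coding, Hba-a1 had 3241 TPM in replicate 1 against 35420 TPM in replicate 2. Hbb-bs had 115.7 TPM in replicate 1 against 423.6 TPM in replicate 2 on such transcripts, so both genes were then higher in replicate 2. The erythroid transcription factor gene Klf1 had 665 TPM in replicate 1 against 2351 TPM in replicate 2. The labels give both libraries the same biosample record but name them biological replicates, so technical and biological spread cannot be told apart here.

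Of the 9 genes, 8 were detected, meaning at least 1 TPM in both libraries, and Gadd45b was not. The 9 genes summed to 727.4 TPM in replicate 1 against 519.8 TPM in replicate 2. Counted over coding transcripts alone, the sums were 371.4 TPM in replicate 1 against 328.0 TPM in replicate 2. The rest came from transcripts annotated as other types than protein coding, mainly retained introns and processed transcripts, which took most of the TPM of 4 of the genes in both libraries. Over coding transcripts, 7 genes reached 1 TPM in both libraries, since Ccng2 did not. By mean TPM over all transcripts the order was Gadd45a, Trp53, Ccng1, Mdm4, Ccng2, Gadd45g, Mdm2, Sesn2 and Gadd45b. From Gadd45a to Mdm2, each gene overlapped the next in its 2 values, so neighbours in this stretch did not differ beyond the spread between libraries. Genes further apart in it could, as Trp53 lay above Ccng2, Gadd45g and Mdm2 without overlap, and Gadd45a above Mdm2. Mdm2 lay above Sesn2 and Sesn2 above Gadd45b without overlap. By coding transcripts the order was Ccng1, Trp53, Gadd45a, Gadd45g, Sesn2, Mdm4, Mdm2, Ccng2 and Gadd45b, and only Mdm2 and Ccng2 were neighbours without overlap.

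**Figure D1:**
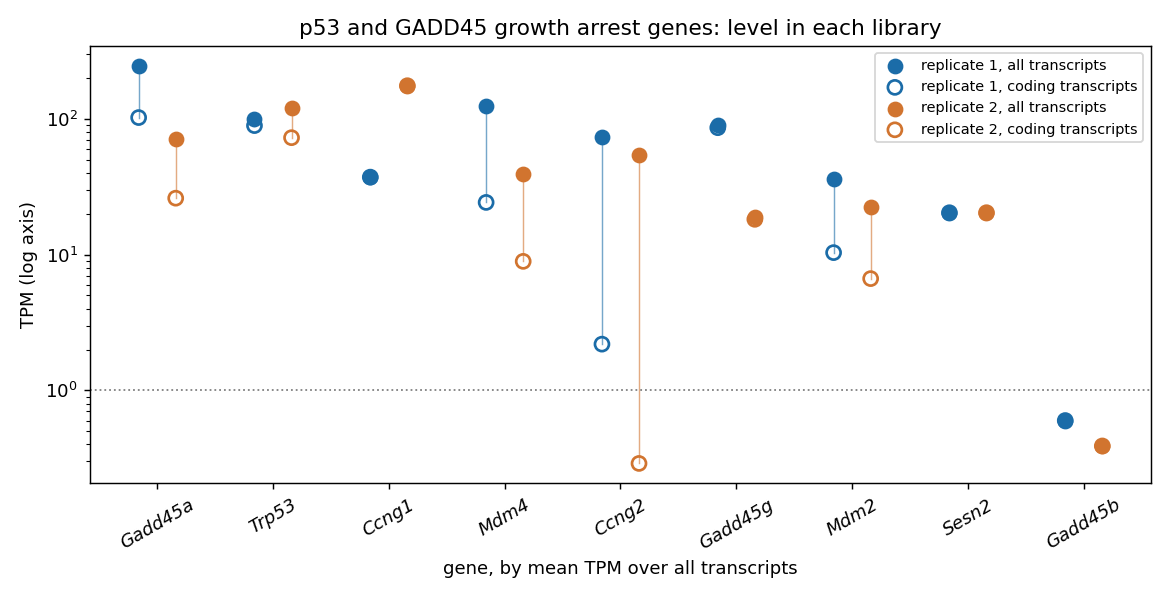
Level of each gene in TPM (log axis) in replicate 1 (left, blue) and replicate 2 (right, orange), over all transcripts (filled) and over coding transcripts alone (open); the dotted line marks 1 TPM. Gadd45b lies below the line in both libraries, and the gap between filled and open points is widest for Ccng2, with 73.8 TPM against 2.19 coding TPM in replicate 1 and 53.6 TPM against 0.29 coding TPM in replicate 2.

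The libraries were also set against each other, as 2 libraries and not as conditions, by a two-sided exact binomial test on counts scaled by the trimmed mean of M values (TMM). A gene was called when its adjusted p was under 0.05 and its fold at least 2. This p counts sampling error alone, so a small p says nothing of how far separate cultures would differ. Of 8895 genes tested, 47.9% were called, 30.4% higher in replicate 1 and 17.6% higher in replicate 2, with a median log2 of replicate 1 over replicate 2 of 0.215. Of the 9 genes, 8 were tested and 4 were called. Mdm4, Gadd45a and Gadd45g were higher in replicate 1, and Ccng1 was higher in replicate 2. With this scaling and fold, that count lies near the share of all genes called and is no result about these genes. Their median log2 was 0.783, and the median of its size was 1.2, against 0.953 over all genes tested. Of all calls, 63.3% were higher in replicate 1, or 79.1% when the counts were scaled by library totals, a scaling that moved the median log2 of all genes by 0.398. In RNA from many cells, fewer cells of a type and less RNA per cell cannot be told apart. Depth and the globin share differed between the libraries, as given above, and their part in these differences was not tested.

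**Figure D2:**
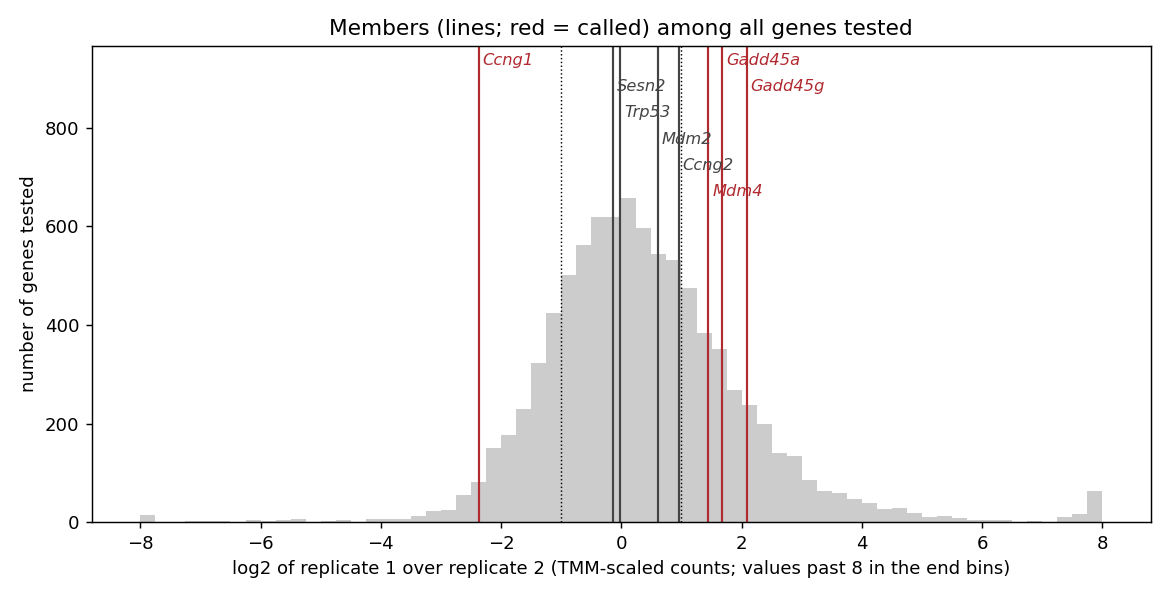
Histogram of the log2 of replicate 1 over replicate 2 (TMM-scaled counts) for the 8895 genes tested, with values past 8 placed in the end bins; vertical lines mark the 8 tested members, red where called, and dotted lines mark 2-fold. Ccng1 stands at -2.37 and Gadd45g at 2.09, with Trp53 and Sesn2 near 0.

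Trp53 (ENSMUSG00000059552.9, mm10 chromosome 11, 69580359 to 69591873, plus strand), which encodes p53, was among the more abundant of the genes and the steadiest between the libraries in TMM-scaled counts. It had 99.3 TPM (10709 counts) in replicate 1 against 119 TPM (1616 counts) in replicate 2, or 109 ± 13.9 TPM (SD, n = 2). This level lay above 84.8% of detected genes in replicate 1 and 86.4% in replicate 2. The log2 of replicate 1 over replicate 2 was -0.02, with a 95% counting interval of -0.09 to 0.06 and an adjusted p of 0.685 (exact binomial test over all genes). Only 1.06% of tested genes had a log2 of smaller size.

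Mouse Trp53 is known to be spliced in a regular form and in an alternative form, which differ in the last part of the coding frame and so in the C-terminal tail that regulates DNA binding. In the GENCODE M21 annotation Trp53-202 carries the alternative end and Trp53-203 the regular end. Trp53-202 has 96 extra bases before the shared last exon, at chr11:69591254-69591349, and its frame stops within them. The annotated coding frame has 1134 bases in Trp53-202 and 1170 in Trp53-203, a gap that the ends alone do not make up. Frames with the same end also differ, as that of Trp53-201, with the regular end, has 1161 bases. The ends of both coding frames are printed, plus strand, because they define the regular and the alternative form. After 30 shared bases in lower case, the differing stretch is in capitals. The capitals span chr11:69591254-69591308 in Trp53-202 and chr11:69591350-69591431 in Trp53-203.
Trp53-202: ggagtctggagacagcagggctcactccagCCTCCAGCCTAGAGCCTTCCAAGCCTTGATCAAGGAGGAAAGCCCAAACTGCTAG
Trp53-203: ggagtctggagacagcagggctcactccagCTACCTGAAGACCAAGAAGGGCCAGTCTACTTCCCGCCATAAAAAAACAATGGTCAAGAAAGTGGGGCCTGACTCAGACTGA

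The alternative end was the more abundant of the coding forms in both libraries. Trp53-202 had 63.5 TPM (7311 counts, posterior SD 292) in replicate 1 against 49.3 TPM (932.9 counts, posterior SD 59.4) in replicate 2. Trp53-203 had 23.5 TPM (2618 counts, posterior SD 790) in replicate 1 against 23.2 TPM (424.8 counts, posterior SD 123) in replicate 2. Transcripts with the alternative end took 71.4% of the coding TPM of Trp53 in replicate 1 and 68.1% in replicate 2, against 28.6% in replicate 1 and 31.9% in replicate 2 for the regular end. From posterior means the alternative share was 70.1% in replicate 1 and 66.6% in replicate 2. The posterior SD is the estimate's own error within a library. It was wider for Trp53-203 than for Trp53-202. Trp53-203 is nearly the same sequence as Trp53-201, whose posterior SD was 841 counts in replicate 1 and 112 in replicate 2; both carry the regular end. Trp53-202 also starts downstream of Trp53-203, and 1725 of the 1771 bases of Trp53-203 lie in its exons. Trp53-206, with the alternative end and the annotated start of Trp53-203, was at 0 counts in both libraries. The forms with counts thus differ in start as well as end, and the part of each in these shares was not tested.

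One further form of Trp53 differed between the libraries. Trp53-204, a processed transcript of 403 bases with no coding frame, had 8.43 TPM (145.9 counts) in replicate 1 against 42.8 TPM (130.8 counts) in replicate 2, or 8.49% of the gene's TPM in replicate 1 and 36.0% in replicate 2. Coding transcripts alone gave 88.9 TPM in replicate 1 against 72.5 TPM in replicate 2, so the library with the higher Trp53 level was replicate 2 over all transcripts and replicate 1 over coding ones. Of the bases of Trp53-204, 324 lie in exons of Trp53-202.

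Mdm2 (ENSMUSG00000020184.10, chromosome 10, 117688875 to 117710758, minus strand), the ubiquitin ligase that targets p53, was present at a lower level than Trp53 in both libraries. It had 36.2 TPM (2973 counts) in replicate 1 against 22.5 TPM (290 counts) in replicate 2, or 29.4 ± 9.72 TPM. The log2 between the libraries was 0.61 (95% counting interval 0.44 to 0.79, adjusted p = 6.39e-13 by the exact binomial test), a 1.53-fold difference that did not reach the call. Mdm2 over Trp53 was -1.45 on the log2 scale in replicate 1 and -2.40 in replicate 2, or -1.92 ± 0.669, with a pseudocount of 0.1 TPM. Over coding transcripts this ratio was -3.09 in replicate 1 and -3.43 in replicate 2.

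Mdm2 is known to be transcribed from a constitutive promoter before exon 1 and from an internal promoter in intron 1 that answers to p53. Transcripts annotated to start in exon 1 took 59.1% of its TPM in replicate 1 against 56.7% in replicate 2, or 87.2% of counts in replicate 1 and 85.9% in replicate 2. The 3 transcripts annotated to start between exon 1 and the end of exon 2 took 40.8% of TPM in replicate 1 and 43.3% in replicate 2, or 12.7% of counts in replicate 1 and 14.1% in replicate 2. The class had a larger share of TPM than of counts. Its leading transcript, the processed transcript Mdm2-207 of 499 bases, had 13.4 TPM (321.3 counts) in replicate 1 against 9.36 TPM (38.6 counts) in replicate 2. An annotated start is not a measured one, and no share here is a reading of promoter use. The full-length coding transcript Mdm2-201 had 9.66 TPM (1955 counts) in replicate 1 against 6.65 TPM (219.9 counts) in replicate 2. Mdm2-203, a processed transcript of 570 bases that all lie in exons of Mdm2-201, took 24.4% of the gene's TPM in replicate 1 and 23.4% in replicate 2.

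**Figure D3:**
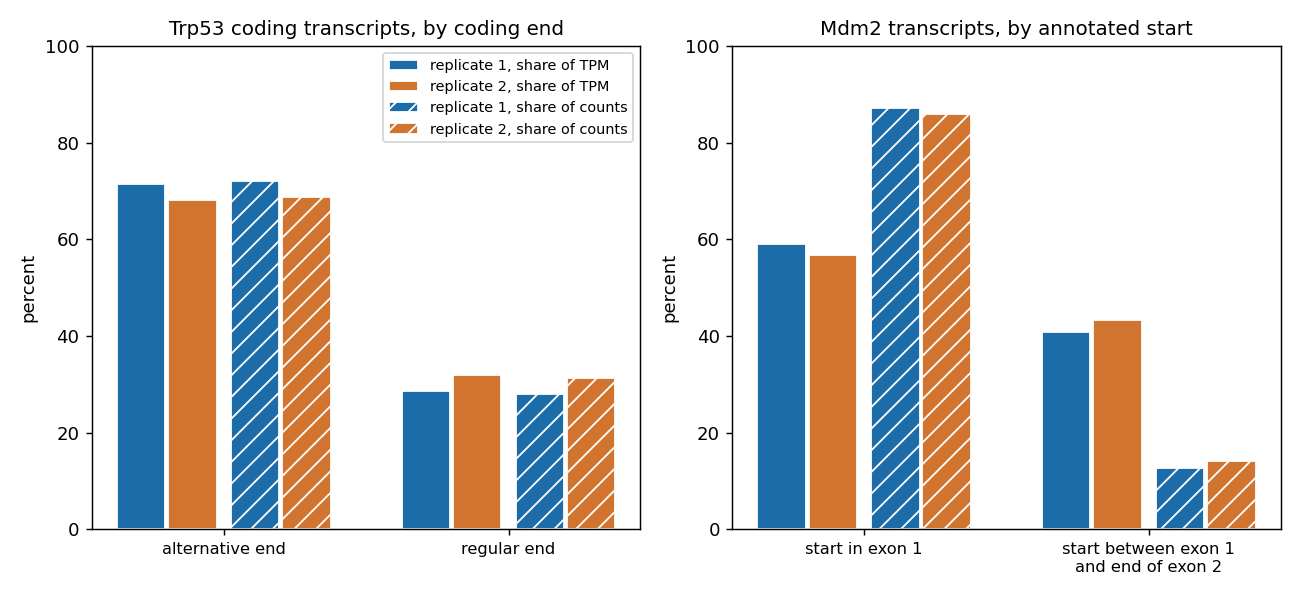
Left, share of the coding transcripts of Trp53 with the alternative and the regular end; right, share of Mdm2 transcripts by annotated start, in replicate 1 (blue) and replicate 2 (orange), as percent of TPM (plain) and of counts (hatched). The alternative end holds 71.4% of coding TPM in replicate 1 and 68.1% in replicate 2, and the Mdm2 shares of TPM and of counts lie far apart.

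Mdm4 (ENSMUSG00000054387.9, chromosome 1, 132959484 to 133030561, minus strand) encodes the relative of Mdm2 that binds p53 and blocks its activity. It had 125 TPM (6485 counts) in replicate 1 against 39.3 TPM (354 counts) in replicate 2, or 82.0 ± 60.3 TPM. It was called as 2.73-fold higher in replicate 1 (log2 1.45, 95% counting interval 1.30 to 1.61, adjusted p = 1.34e-101 by the exact binomial test), and 68.5% of tested genes had a log2 of smaller size. Mdm4 over Trp53 was 0.33 on the log2 scale in replicate 1 and -1.59 in replicate 2, so the libraries differed in which of the pair was higher. Over coding transcripts Mdm4 lay below Trp53 in both, with a log2 ratio of -1.87 in replicate 1 and -3.01 in replicate 2. Mdm2 over Mdm4 was -1.78 in replicate 1 and -0.80 in replicate 2.

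Most of the Mdm4 level came from a short transcript. Mdm4-204, annotated as a retained intron with 496 bases, had 97.1 TPM (2303 counts, posterior SD 31.9) in replicate 1 against 28.4 TPM (116.2 counts, posterior SD 7.88) in replicate 2, or 77.9% of the gene's TPM in replicate 1 and 72.1% in replicate 2. The coding Mdm4-201 had 21.1 TPM (2568 counts, posterior SD 47.6) in replicate 1 against 8.04 TPM (160.4 counts, posterior SD 12.8) in replicate 2. In counts these transcripts were close, and the coding share of the gene's counts was 61.1% in replicate 1 and 64.1% in replicate 2. Of the 496 bases of Mdm4-204, 456 lie in exons of Mdm4-201, and the other 40 run into the intron. That junction is shown, minus strand, because it is where the short transcript leaves the coding one, with 30 shared bases in lower case and the differing stretch in capitals. The capitals span chr1:133004682-133004721 in Mdm4-201 and chr1:133009097-133009136 in Mdm4-204.
Mdm4-201: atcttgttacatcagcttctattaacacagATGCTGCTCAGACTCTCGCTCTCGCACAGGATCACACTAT
Mdm4-204: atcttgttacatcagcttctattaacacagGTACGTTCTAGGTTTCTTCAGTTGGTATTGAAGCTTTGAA

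Gadd45a was the most abundant of the GADD45 genes, and Gadd45b was barely present. The GADD45 proteins bind PCNA, cyclin B with Cdk1, and the kinase MAP3K4, and Gadd45a is a p53 target. Gadd45a (ENSMUSG00000036390.6, chromosome 6, 67035096 to 67037457, minus strand) had 245 TPM (13238 counts) in replicate 1 against 70.9 TPM (616 counts) in replicate 2, or 158 ± 123 TPM. It lay above 93.6% of detected genes in replicate 1 and 79.9% in replicate 2. It was called as 3.20-fold higher in replicate 1 (log2 1.68, 95% counting interval 1.56 to 1.80, adjusted p = 4.75e-252 by the exact binomial test).

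Gadd45g (ENSMUSG00000021453.2, chromosome 13, 51846678 to 51848468, plus strand), which in other cell types is induced by cytokines, had 90.5 TPM (5666 counts) in replicate 1 against 19.0 TPM (198 counts) in replicate 2, or 54.7 ± 50.5 TPM. It was called as 4.26-fold higher in replicate 1 (log2 2.09, 95% counting interval 1.89 to 2.30, adjusted p = 1.01e-142 by the exact binomial test). Gadd45b (ENSMUSG00000015312.8, chromosome 10, 80930073 to 80932204, plus strand), known as a target of TGF-beta and NF-kappaB signalling, had 0.60 TPM (46 counts) in replicate 1 against 0.39 TPM (5 counts) in replicate 2. Its level was 0.653 CPM in replicate 1 (95% exact Poisson interval 0.478 to 0.871) and 0.361 CPM in replicate 2 (0.117 to 0.843), and these intervals overlap. Its mean fell under 1 CPM, so it was not tested. The higher levels of Gadd45a and Gadd45g thus stood in the same library, while Gadd45b was below 1 TPM in both.

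Within each library the order of the family was the same. Gadd45a over Gadd45g was 1.44 on the log2 scale in replicate 1 and 1.90 in replicate 2, or 1.67 ± 0.324. Gadd45a over Gadd45b was 8.45 in replicate 1 and 7.18 in replicate 2. Gadd45b over Gadd45g was -7.02 in replicate 1 and -5.29 in replicate 2. Over coding transcripts the lead of Gadd45a over Gadd45g narrowed to 0.25 in replicate 1 and 0.51 in replicate 2. Retained intron transcripts held 58.4% of the Gadd45a TPM in replicate 1 and 63.4% in replicate 2.

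By TPM the leading Gadd45a transcript differed between the libraries, though in replicate 2 the order lay within the estimate's own error. The coding Gadd45a-201 had 102 TPM (41.6% of the gene) in replicate 1 against 26.0 TPM (36.6%) in replicate 2. The retained intron transcript Gadd45a-203 had 89.3 TPM (36.5%) in replicate 1 against 30.9 TPM (43.6%) in replicate 2. In replicate 2 the deposited TPM intervals overlapped, with 20.3 to 28.1 for Gadd45a-201 and 23.8 to 34.1 for Gadd45a-203. Gadd45a-202, also a retained intron, took 18.3% in replicate 1 and 16.2% in replicate 2. The coding share was below 50% in both libraries, although the coding transcript held 56.8% of counts in replicate 1 and 51.6% in replicate 2. Gadd45g was unlike Gadd45a in this respect, with 94.9% of its TPM in replicate 1 against 95.6% in replicate 2 on its coding transcript Gadd45g-201. The place where Gadd45a-202 leaves the coding transcript is shown, minus strand, with shared bases in lower case and the differing stretch in capitals, at chr6:67035733-67035772 in Gadd45a-201 and chr6:67036638-67036677 in Gadd45a-202.
Gadd45a-201: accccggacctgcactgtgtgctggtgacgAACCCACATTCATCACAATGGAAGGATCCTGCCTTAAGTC
Gadd45a-202: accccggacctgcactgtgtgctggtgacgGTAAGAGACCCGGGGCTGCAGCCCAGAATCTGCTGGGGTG

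E230016M11Rik overlaps Gadd45a on the opposite strand and held 43 counts in replicate 1 and 12 counts in replicate 2. No source used here states whether counting used strand, so reads of this pair cannot be told apart with certainty. The other overlapping genes held few counts, with 15.01 in replicate 1 and 0 in replicate 2 for Gm29257 in Mdm4, and 4 in replicate 1 and 0 in replicate 2 for Gm12981 in Sesn2. The processed pseudogene of Trp53 was at 0 counts in both libraries, and that of Mdm4 at 0 in replicate 1 and 3 in replicate 2.

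Ccng1 (ENSMUSG00000020326.7, chromosome 11, 40748552 to 40755311, minus strand), a p53 target whose protein cyclin G1 brings protein phosphatase 2A to MDM2, had the widest gap between the libraries among the tested members in TMM-scaled counts. In TPM, Gadd45g was slightly wider (4.76-fold higher in replicate 1, against 4.71-fold higher in replicate 2 for Ccng1), and with library totals so were Gadd45g (log2 2.49) and Gadd45a (2.08), against -1.97 for Ccng1. Ccng1 had 37.1 TPM (8601 counts) in replicate 1 against 175 TPM (6607 counts) in replicate 2, or 106 ± 97.3 TPM. By TPM it ranked 6 of the 9 genes in replicate 1 and 1 in replicate 2. It was called as 5.15-fold higher in replicate 2 (log2 of replicate 1 over replicate 2 of -2.37, 95% counting interval -2.41 to -2.32), with a p too small for the exact binomial calculation to represent. Of tested genes, 87.5% had a log2 of smaller size. All of its TPM fell on the coding transcript Ccng1-201 in both libraries.

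Ccng2 (ENSMUSG00000029385.10, chromosome 5, 93267257 to 93276231, plus strand) encodes cyclin G2, a relative that is abundant in arrested cells and is known as a target of FOXO factors. It had 73.8 TPM (2744 counts) in replicate 1 against 53.6 TPM (211 counts) in replicate 2, or 63.7 ± 14.2 TPM. The log2 was 0.95 (95% counting interval 0.75 to 1.16, adjusted p = 7e-24 by the exact binomial test), a 1.94-fold difference just under the 2-fold line. Ccng2 over Ccng1 was 0.99 on the log2 scale in replicate 1 and -1.70 in replicate 2, so which cyclin G gene was higher differed between the libraries. Over coding transcripts Ccng2 lay below Ccng1 in both, with -4.02 in replicate 1 and -8.81 in replicate 2.

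Almost none of the Ccng2 level came from its coding transcripts, which had 2.19 TPM in replicate 1 against 0.29 TPM in replicate 2. That was 2.97% of the gene's TPM in replicate 1 and 0.541% in replicate 2, or 14.6% of counts in replicate 1 and 4.07% in replicate 2. Ccng2-206, a processed transcript of 690 bases, had 57.6 TPM (2139 counts) in replicate 1 against 17.9 TPM (111.8 counts) in replicate 2. Ccng2-205, of 358 bases, had 13.9 TPM (197.9 counts) in replicate 1 against 35.5 TPM (90.6 counts) in replicate 2. The leading transcript was thus Ccng2-206 in replicate 1, with 78.1% of the gene, and Ccng2-205 in replicate 2, with 66.2%. Both lie largely in exons of the coding Ccng2-201, over 473 of 690 bases and 209 of 358 bases. The sequences where Ccng2-206 parts from Ccng2-201 are given because most of the gene's counts went to Ccng2-206; they are on the plus strand, with shared bases in lower case and the differing stretch in capitals, at chr5:93270794-93270833 in Ccng2-201 and chr5:93269500-93269539 in Ccng2-206.
Ccng2-201: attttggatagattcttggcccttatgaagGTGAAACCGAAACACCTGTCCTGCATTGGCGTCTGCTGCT
Ccng2-206: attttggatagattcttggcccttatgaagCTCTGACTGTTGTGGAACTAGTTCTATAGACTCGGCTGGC

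**Figure D4:**
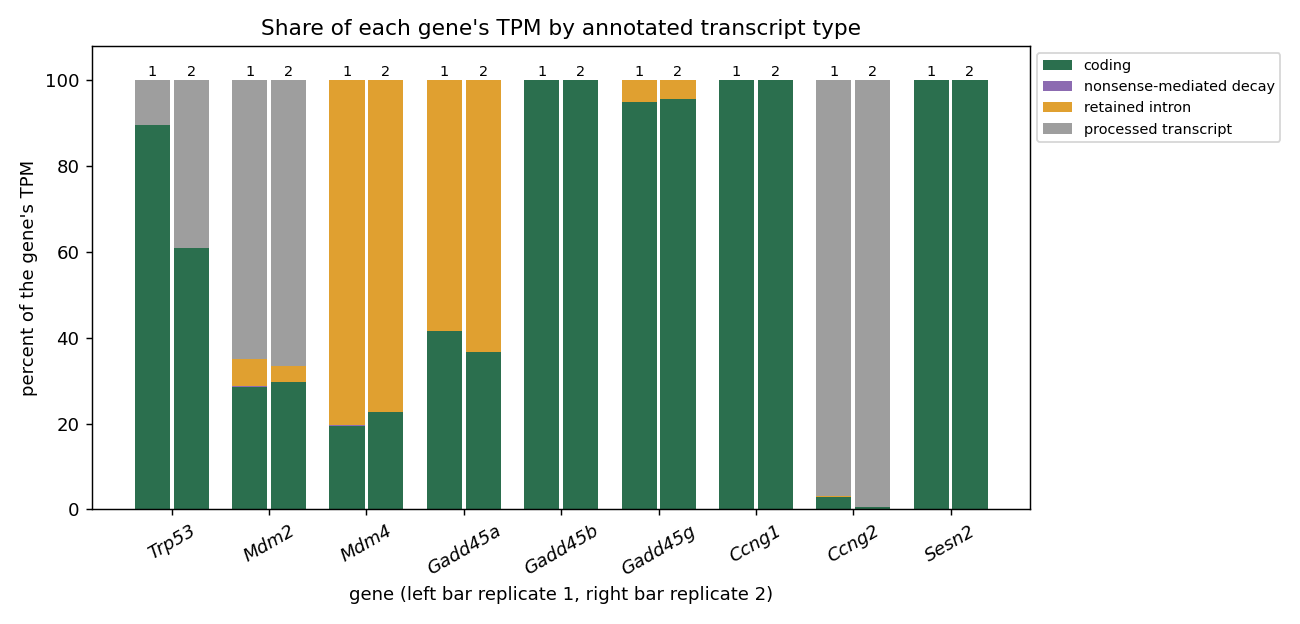
Share of each gene's TPM by annotated transcript type, as stacked bars that sum to 100 percent, with replicate 1 left and replicate 2 right. Mdm2, Mdm4, Gadd45a and Ccng2 have less than 50% on coding transcripts in both libraries, Trp53 has 89.6% in replicate 1 and 60.9% in replicate 2, and Gadd45b, Ccng1 and Sesn2 are all coding.

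Low coding shares were found across the series. Of 2442 coding genes with at least 10 TPM in both libraries and with coding and noncoding transcripts, 28.1% had a coding share of TPM below 50% in both libraries and 7.99% had one below 10%. The median coding share of these genes was 80.8% in replicate 1 and 79.9% in replicate 2. Of the 9 genes, 7 had more than 1 annotated transcript, and the same transcript led in both libraries in 5 of them. Of the 46 transcripts, 5 were at 0 counts in both libraries. The short noncoding transcripts named above run from 358 to 824 bases. TPM divides by effective length, which was 152 bases under the annotated length in replicate 1 and 130 bases under it in replicate 2, so the same count weighs more in them.

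Sesn2 (ENSMUSG00000028893.8, chromosome 4, 132492032 to 132510501, minus strand) encodes sestrin 2, a leucine sensor that restrains mTORC1 through GATOR2 and a target of p53 and of the integrated stress response. It had 20.31 TPM (4653 counts) in replicate 1 against 20.32 TPM (760 counts) in replicate 2, all on the coding transcript. Its TPM was the closest match between the libraries among the 9 genes, and it lay above 51.8% of detected genes in replicate 1 and 56.9% in replicate 2. In scaled counts the log2 was -0.13 (95% counting interval -0.24 to -0.02, adjusted p = 0.0262 by the exact binomial test), far from 2-fold. Sesn2 led its family: Sesn1 had 9.73 TPM (1644 counts) in replicate 1 against 1.23 TPM (34 counts) in replicate 2, and Sesn3 had 1 count in replicate 1 and 0 counts in replicate 2. Sesn2 over Sesn1 was 1.05 on the log2 scale in replicate 1 and 3.94 in replicate 2, with Sesn2 itself at nearly the same TPM in both.

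Windows around the annotated starts of the 9 genes (RefSeq, GRCm38.p6, 250 bases before to 50 after) were searched on both strands for the p53 half-site, since several of the genes are known p53 targets. All 9 genes matched, with 10 windows. A half-site was found in 4 windows, those of Ccng1, Gadd45a, Mdm2 and Trp53, and in 8.36% of 32851 windows of all genes. Only single half-sites were sought, not full p53 sites, and bases outside the windows were not searched. The GATA motif (NGATAA or NGATAG with A or T first) was found in 1 window, that of Mdm4, and in 29.8% of all windows. A match describes the letters in the window and is not a measured site, and its bearing on the levels was not tested. The stretches around the half-sites are shown 5′ to 3′ on each gene's strand, with the half-site in capitals, 175 bases before the start in Ccng1 (chr11:40755437-40755496), 30 in Gadd45a (chr6:67037413-67037472), 176 in Mdm2 (chr10:117710910-117710969) and 65 in Trp53 (chr11:69580259-69580318).
Ccng1: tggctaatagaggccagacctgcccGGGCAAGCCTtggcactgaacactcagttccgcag
Gadd45a: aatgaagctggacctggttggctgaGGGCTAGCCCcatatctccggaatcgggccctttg
Mdm2: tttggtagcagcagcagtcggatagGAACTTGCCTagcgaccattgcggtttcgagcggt
Trp53: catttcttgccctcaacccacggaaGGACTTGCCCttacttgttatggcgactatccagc

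The other genes of the pathway were read in 6 lists with 71 genes, of which 45 were detected and 54 tested. Between the libraries 20 of them were called higher in replicate 1 and 9 higher in replicate 2, or 53.7%, near the 47.9% of all genes tested. The median level of all detected genes was 18.6 TPM. The medians below are over all measured genes of a list.

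Among 19 regulators of p53, 14 were detected, with a median of 12.8 TPM and a median log2 of -0.02. Of 17 tested, 5 were called higher in replicate 1 and 5 higher in replicate 2. Rpl11, a ribosomal protein that binds MDM2, had 586 TPM in replicate 1 against 243 TPM in replicate 2 and was called higher in replicate 1. Cop1, a ubiquitin ligase of p53, had 57.0 TPM in replicate 1 against 332 TPM in replicate 2 and was called higher in replicate 2, although its coding transcripts held 3.92 TPM in replicate 1 against 1.74 TPM in replicate 2. Trp53bp1, a DNA repair protein that binds p53, had the widest gap in scaled counts, with 9.07 TPM in replicate 1 against 0.78 TPM in replicate 2, of which coding transcripts held 0.17 TPM in replicate 1 and 0.06 TPM in replicate 2. Neither p53 relative was detected: Trp63 had 0 TPM in replicate 1 against 0.18 TPM in replicate 2, and Trp73 had 0.10 TPM in replicate 1 against 0.62 TPM in replicate 2.

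Of 12 p53 targets in cell death, 7 were detected, with a median of 14.0 TPM and a median log2 of 0.64. Of 8 tested, 3 were called higher in replicate 1 and 1 higher in replicate 2. Bbc3, which encodes the BH3-only protein PUMA, had the highest mean, with 145 TPM in replicate 1 against 1247 TPM in replicate 2, and was the one called higher in replicate 2. Bax, an effector of mitochondrial cell death, had 325 TPM in replicate 1 against 49.6 TPM in replicate 2, and was above Bbc3 in replicate 1. Trp53inp1, a p53 target that promotes p53 activity, had 14.7 TPM in replicate 1 against 0.17 TPM in replicate 2, with 1.12 TPM in replicate 1 and 0.17 TPM in replicate 2 on coding transcripts. Bax and Bbc3 were thus called in opposite directions.

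Of 17 p53 targets in arrest, repair and metabolism, 7 were detected, with a median of 0.81 TPM and a median log2 of 0.72. Of 10 tested, 5 were called higher in replicate 1 and 2 higher in replicate 2. Cdkn1a, which encodes the CDK inhibitor p21, had 111 TPM in replicate 1 against 103 TPM in replicate 2, or 107 ± 5.37 TPM, and was not called. Btg2, an antiproliferative gene of the BTG family, had 209 TPM in replicate 1 against 60.6 TPM in replicate 2. Rrm2b, the p53-inducible ribonucleotide reductase subunit, had 1.60 TPM (181 counts) in replicate 1 against 0.02 TPM (1 count) in replicate 2, with 0.50 TPM in replicate 1 and 0.02 TPM in replicate 2 on coding transcripts.

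All 10 partners of the GADD45 and cyclin G proteins were detected, with a median of 20.6 TPM and a median log2 of 0.29. Of these, 3 were called higher in replicate 1 and 0 higher in replicate 2. Map2k7, a kinase upstream of JNK that GADD45 beta is known to bind, had 127 TPM in replicate 1 against 210 TPM in replicate 2. Gak, the cyclin G associated kinase, had 57.7 TPM in replicate 1 against 61.8 TPM in replicate 2. Cdk1, the mitotic kinase, had the widest gap in scaled counts, with 50.6 TPM in replicate 1 against 4.54 TPM in replicate 2. Its coding transcripts held 2.40 TPM in replicate 1 and 1.43 TPM in replicate 2. Of 11 genes of GATOR and mTORC1, 7 were detected, with a median of 4.49 TPM, and of 9 tested 4 were called higher in replicate 1 and 1 higher in replicate 2. The GATOR1 subunit gene Nprl3, which contains the enhancers of the alpha globin genes in its introns, had 125 TPM in replicate 1 against 70.4 TPM in replicate 2. Rptor, which encodes the mTORC1 subunit raptor, had 41.3 TPM in replicate 1 against 25.2 TPM in replicate 2. Mios, a GATOR2 subunit gene, had 2.32 TPM in replicate 1 against 0.20 TPM in replicate 2.

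**Figure D5:**
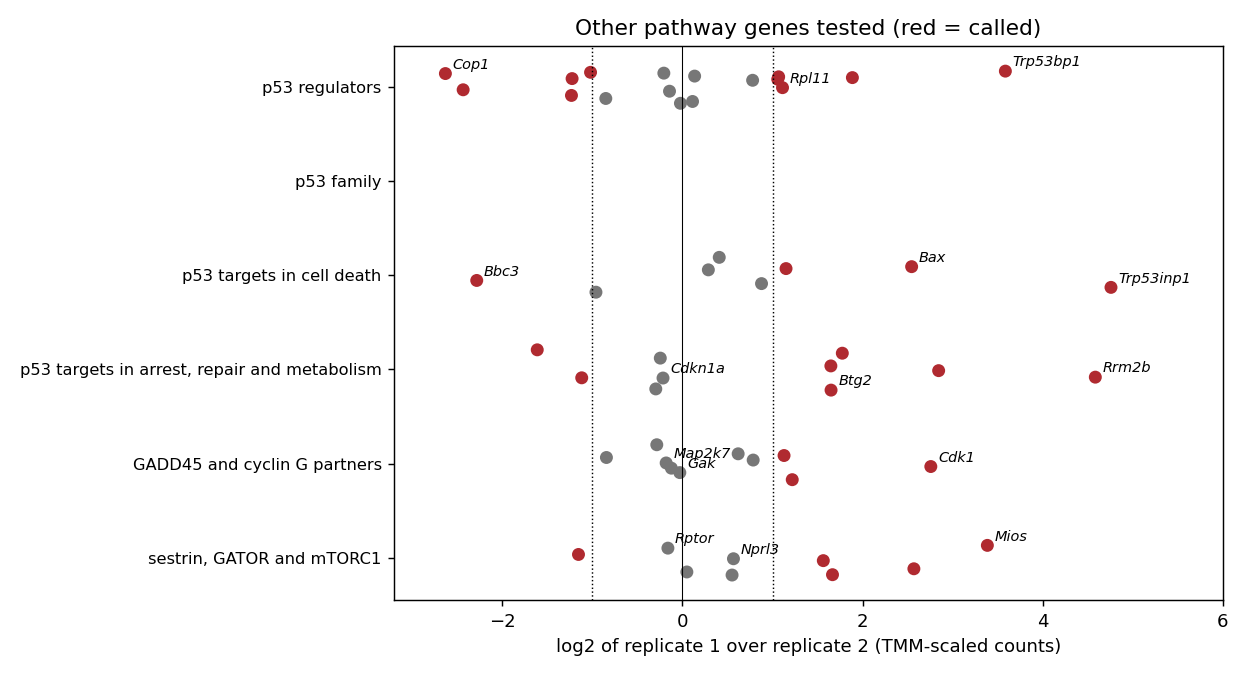
Log2 of replicate 1 over replicate 2 (TMM-scaled counts) for the 54 tested genes of the pathway lists, red where called; points are spread vertically within a list for legibility, and dotted lines mark 2-fold. Every list with tested genes has points on both sides of 0, and the p53 family has none because neither gene was tested.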

How the data were processed

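Per the labels the assembly was mm10, and a text deposited with the tables names GENCODE M4. Aligner, quantification tool and use of strand are stated in no source used here. The deposited estimated counts came as maximum likelihood and posterior mean values; deposited TPM and FPKM were corrected for effective length, and a deposited percent gives the share of a gene's TPM on each transcript. Symbols and transcript types came from GENCODE M21 by identifier on the same assembly (42462 of 43346 genes). Transcript names, exons, coding frames and transcript sequences also came from M21. Some of its transcripts differ in length from the deposited ones, as Mdm2-201 with 3099 bases against 3086 deposited. Rounded counts were scaled by TMM (edgeR 4.0.16; factors 1.15 and 0.871) and tested, at a mean CPM of 1 or more, by a two-sided exact binomial test with Benjamini-Hochberg adjustment; log2 ratios used a prior count of 0.5. Entries other than genes (3 counts in replicate 1, 0 in replicate 2) were left out. The test was checked on simulated counts that held sampling error alone, so the check does not cover other spread between libraries. An exact sign-flip test on 2 values cannot go below p = 0.5. The genes and lists were chosen with earlier results of these data known. Named were all 9 genes, the 2 highest and the widest-gap gene of each list, Sesn1, Sesn3 and transcripts with at least 10% of their gene; overlapping genes and markers were named outside this rule. Alternatives were posterior means, other minimum levels, TPM without mitochondrial and globin genes, DESeq2 1.42.0 size factors, library totals and a fold of 1.5. Python 3.11.15 and R 4.3.3 were used.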

Additional observations from a re-analysis of the deposited data

How the results depend on the processing

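The counts of the 9 genes detected, called and led by the same transcript stayed within 1.5 times of the reported ones under each alternative run. The number called did reach that limit, rising from 4 to 6 with library totals and with a fold of 1.5. Of all 8895 genes tested, 4506 were called with library totals and 5956 with a fold of 1.5. With a mean CPM of at least 10, fewer genes were tested, and 2535 of 5721 were called between the libraries, against 4265 of 8895. With library totals, Mdm2 (log2 1.01) and Ccng2 (1.35) passed 2-fold. Leaving out 1 library each, Mdm4 over Trp53 ranged from -1.59 to 0.33 (log2) and Ccng2 over Ccng1 from -1.70 to 0.99, so their signs reversed between the libraries. Coding transcripts alone, an alternative added after seeing the data, gave -3.26 for Mdm2 over Trp53 (against -1.92), -2.44 for Mdm4 over Trp53 (-0.63), 6.46 for Gadd45a over Gadd45b (7.82), 0.38 for Gadd45a over Gadd45g (1.67) and -6.42 for Ccng2 over Ccng1 (-0.36), and mean levels of 80.7 TPM for Trp53, 8.49 for Mdm2, 16.6 for Mdm4 and 1.24 for Ccng2. Without mitochondrial and globin genes, Trp53 had 129.7 TPM and Sesn2 24.3 TPM. A pseudocount of 1 TPM gave 6.48 for Gadd45a over Gadd45b, -4.84 for Gadd45b over Gadd45g (-6.15) and 4.41 for Sesn2 over Sesn3 (7.61), where posterior mean TPM gave 7.31; these turn on genes near 0. Depth limits the low genes: Gadd45b rests on 5 counts in replicate 2. No paired analysis was possible because the series has 1 group.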
